A study of Mus musculus with 14 samples.

Results

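The genes described here encode subunits of the mitochondrial respiratory chain and ATP synthase. They were picked by symbol from the 55367 genes of both count tables, as Nduf subunits, Sdha to Sdhd, Uqcr genes, Cox4 to Cox8 genes, Atp5 genes, and the protein-coding genes of mitochondrial DNA, whose symbols start with mt-. Of 114 matching symbols, 13 with -ps in the symbol and Ndufa4l2 were left out, which gave 100 members, 87 in the nucleus and 13 in mitochondrial DNA. By complex, the nuclear members were 39 of complex I, 4 of complex II, 8 of complex III, 19 of complex IV and 17 of complex V, and the mitochondrial ones 7, 0, 1, 3 and 2.

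The cells were primary lineage-negative bone marrow cells of wild-type mice, a mix of blood stem and progenitor cells, grown in medium with serum, SCF, IL6 and IL3. The ages and sexes of the mice, and whether replicates came from separate animals, are not given in the labels, so p-values measure the spread between these libraries. In the first experiment, cells carried a pSMAL lentivirus with luciferase (LUC, 3 libraries) or with SETBP1 D868N (SETBP1-D868N, 3 libraries), a mutant form of a DNA-binding protein altered in blood cancers. In the second, all cells carried SETBP1 D868N, and they received the solvent DMSO (4 libraries) or 2.5 µM of the MYST acetyltransferase inhibitor PF-9363 (PF9363, 4 libraries) for 4 days. PolyA RNA was sequenced, from 500 ng of total RNA with a Watchmaker kit in the first experiment and from 100 ng in the second.

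Complex I (Nduf and mt-Nd genes) takes electrons from NADH, complex II (Sdh genes) takes them from succinate, complex III (Uqcr genes and mt-Cytb) passes them to cytochrome c, complex IV (Cox and mt-Co genes) hands them to oxygen, and complex V (Atp5 and mt-Atp genes) makes ATP from the proton gradient. All but complex II are built from subunits of both genomes. The mitochondrial subunits are transcribed inside the organelle by its own polymerase as long transcripts that are cut into single RNAs, whereas nuclear subunits are made in the cytosol and imported.

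The first experiment held 60147266 to 68730322 counts per library and the second 7083731 to 10359093, so a count of 0 (an upper limit of 3 counts) allows up to 0.0499 CPM in the first and 0.424 CPM in the second, counting error only. CPM here means counts per 1000000 counts of a library, after TMM scaling within its experiment, and levels of the 2 experiments were scaled separately. Mouse Setbp1 itself was at 0.0892 ± 0.0136 CPM (SD, n = 3) with LUC and 0.339 ± 0.0295 CPM (n = 3) with SETBP1-D868N, and the viral sequence was not analysed here. In the marrow of both experiments the T cell marker Cd3e was at or near 0, and granulocyte, monocyte and mast cell markers were high. The summed T and NK cell markers, Cd3e among them, lay at 58.16 to 61.86 CPM with LUC and 78.69 to 84.37 CPM with SETBP1-D868N. In the second experiment they lay at 35.75 to 48.07 CPM with DMSO and 2.165 to 3.495 CPM with PF9363. These sums do not speak for each marker. In the first experiment 4 of the 8 markers passed the filter on low counts, with a median log2 fold change of -0.522. Nkg7 was higher with SETBP1-D868N and Cd3g lower. In the second experiment only Nkg7 passed, and it fell. In bulk RNA, fewer cells of a type and less RNA per cell cannot be told apart.

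Of the 13 mitochondrial members, 7 could be measured and 6 were almost without counts in all 14 libraries. mt-Co2, mt-Co3, mt-Atp6, mt-Atp8, mt-Nd3 and mt-Nd4l, subunits of complexes IV, V and I, had at most 5 counts in any library of the first experiment and at most 11 in any of the second. mt-Co1, mt-Cytb, mt-Nd1, mt-Nd2, mt-Nd4, mt-Nd5 and mt-Nd6 were all tested in both experiments. Cells that respire make all 13 proteins, so a count near 0 in these 6 rows is not read here as absent RNA.

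Of these 6, 5 have an almost exact copy in nuclear DNA, where pieces of mitochondrial DNA have been inserted as pseudogenes. In the GENCODE M21 annotation of GRCm38, the copies lie in a row on the minus strand of chromosome 1: Gm28438 (mt-Nd3) at 24612775 to 24613119, Gm28437 (mt-Co3) at 24613189 to 24613971, Gm10925 (mt-Atp6) at 24613974 to 24614651 and Gm28661 (mt-Co2) at 24614885 to 24615565. Shown here, for how alike member and copy are, are 60 bases of a member and of its copy, with differing bases in capitals. The first pair is from mt-Co2, with at most 11 counts in a library, and its 681 aligned bases have 0 differences.
mt-Co2: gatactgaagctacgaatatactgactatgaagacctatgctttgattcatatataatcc
Gm28661: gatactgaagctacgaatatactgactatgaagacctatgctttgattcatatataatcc
The second pair starts at the first base of mt-Nd3, which had no more than 9 counts in a library, and holds the 1 difference found over 345 aligned bases.
mt-Nd3: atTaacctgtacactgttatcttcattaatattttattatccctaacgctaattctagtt
Gm28438: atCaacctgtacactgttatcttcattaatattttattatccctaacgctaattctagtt
The third pair is from mt-Co1, the member with the most counts, whose copy Gm13340 on chromosome 2 (22588103 to 22589647) differs at 37 of 1545 aligned bases, 2 of them here.
mt-Co1: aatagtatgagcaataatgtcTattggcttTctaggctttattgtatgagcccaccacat
Gm13340: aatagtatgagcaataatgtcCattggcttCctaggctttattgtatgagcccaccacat

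Every stretch of 100 bases in a member was looked up in all other annotated transcripts. In mt-Co2, mt-Atp6, mt-Co3, mt-Nd4l and mt-Nd3, 97.6% to 99.9% of these stretches were also present in another gene. In mt-Nd4 the share was 60.8%, in mt-Co1 30.8% and in mt-Nd2 3.2%, and in mt-Nd1, mt-Nd5, mt-Nd6 and mt-Cytb it was 0. mt-Atp8 went against this order, with a share of 0 and at most 1 count in a library. It lies between mt-Co2 and mt-Atp6, and the stretch of chromosome 1 between their copies carries no gene in that annotation and was not analysed here. Together, 6 of the copies on chromosome 1 (the 4 above with Gm28439 and Gm29216, pieces of mt-Nd4 and mt-Co1) held 20 to 40 counts in all in each of the 14 libraries. How the counting treated reads that fit 2 places is not given in the sources used here, and its part in the low counts was not tested.

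**Figure D1:**
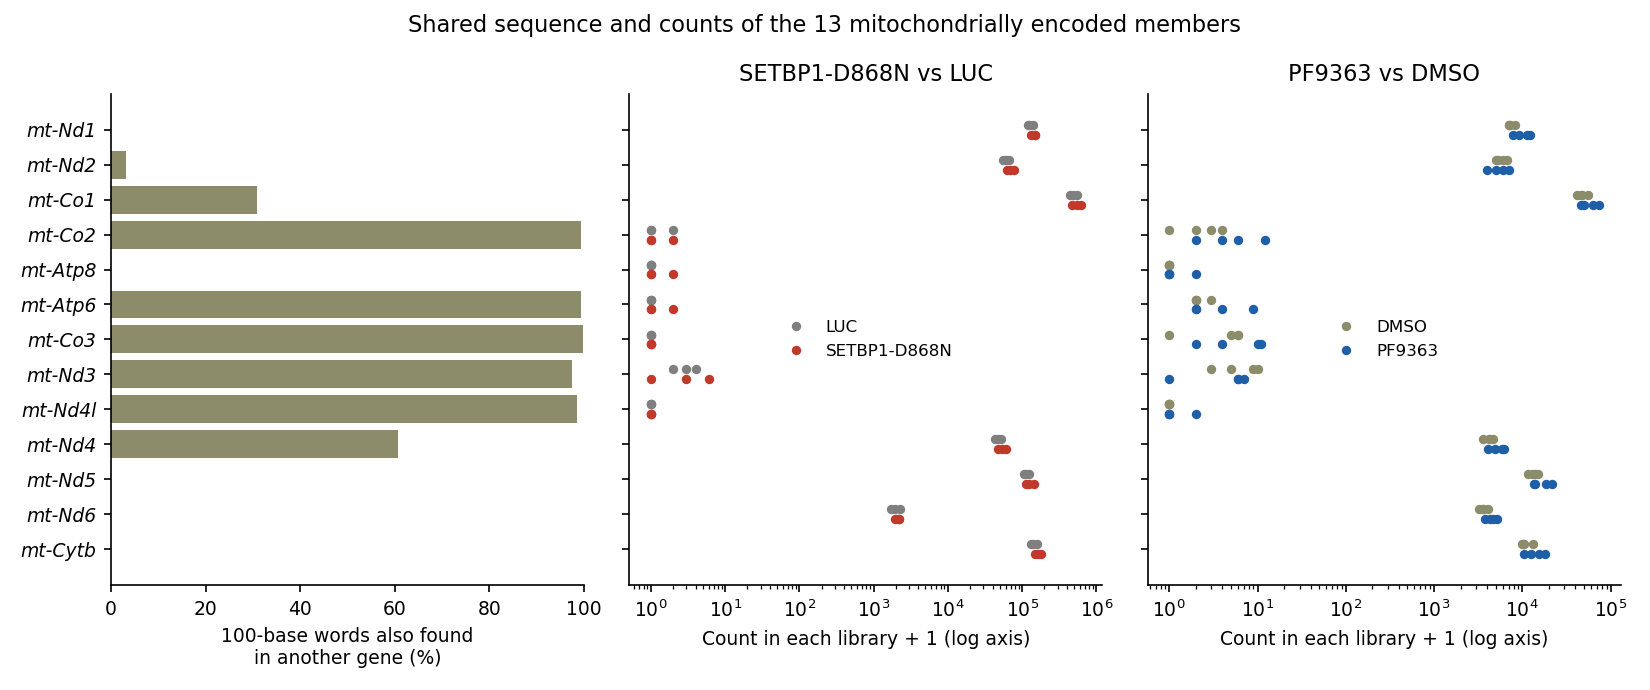
Left, the share (%) of 100-base stretches of each mitochondrially encoded member that also occur in another annotated gene, with members in their order along mitochondrial DNA. Middle and right, the count in each library plus 1, on a log axis, with 1 point per library: 7 members lie above 1000 counts and 6 at 11 or below, and 5 of those 6 have bars of 97.6% or more.

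Among the measured mitochondrial members, mt-Co1, the catalytic core of complex IV, held about as many counts as the other 12 together. The members almost without counts named above are among these 12, so the values are shares of counts and not of mitochondrial RNA. It made up 49.87% ± 0.362 (SD, n = 3) of the mitochondrial members' counts with LUC and 51.58% ± 0.56 (n = 4) with DMSO. Per kilobase of transcript, mt-Co1 stood first of the members in both experiments, at 5025 CPM per kb with LUC and 2977 with DMSO. mt-Nd6, the only member on the minus strand of mitochondrial DNA, made up 0.1752% to 0.2512% of these counts in the LUC libraries and 3.771% to 3.974% in the DMSO libraries. The ribosomal RNAs of the organelle, mt-Rnr1 and mt-Rnr2, differed the other way, at 263 ± 18.1 and 430 ± 2.6 CPM (SD, n = 3) with LUC and 4.39 ± 0.54 and 12.4 ± 1.59 CPM (n = 4) with DMSO. The 2 experiments differ in RNA input, library preparation and depth as well as in cells, and no test was made between them.

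Nuclear members were spread widely in level. Of the tested ones, the highest per kilobase with LUC were Atp5b, the catalytic beta subunit of ATP synthase, at 617 CPM per kb, and Cox4i1, the common form of a regulatory complex IV subunit, at 407 CPM per kb. Ndufa4 led complex I by symbol at 216 CPM per kb, Uqcrh, the hinge protein of complex III, stood at 173, and Sdhd, a membrane anchor of complex II, at 118. The lowest were Ndufb2 in complex I at 2.05 CPM per kb, Sdhc in complex II at 32.1, Uqcrfs1, the Rieske protein of complex III, at 82.4, Cox4i2 in complex IV at 0.709 and Atp5g1 in complex V at 29.9 CPM per kb. Length was the mean over a gene's principal annotated transcripts, or else its longest transcript. It was 2413 bases for Ndufb2 and 2665.5 for Atp5g1, against 718.5 for Atp5g3, and a long transcript lowers the level per kilobase. Exons of Ndufb2 overlap those of Gm42420 on the same strand and of Braf and Gm16272 on the opposite strand, so its count is uncertain. Of the 87, 80 passed the filter on low counts in the first table and 78 in the second. Ndufa11b, Ndufb4c, Ndufs6b, Cox6c2, Cox7b2, Cox8b and Cox8c failed in both, and Cox4i2 and Cox6b2 in the second.

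The first comparison asks what the SETBP1 mutant changed against luciferase. Few respiratory chain genes were called, and their changes were mostly small. Of the 80 tested nuclear members, 13 were called higher and 4 lower at an adjusted p under 0.05 in edgeR's quasi-likelihood test, where 47.2% of all 15794 tested genes were called, 24.5% higher and 22.7% lower. Members called higher made 16.2% of the tested nuclear ones and members called lower 5.0%, both below those backgrounds. Without overlap between groups, 19 were higher and 5 lower, where 29.4% and 27.3% of all genes were. The median log2 fold change of the nuclear members was 0.03, beside 0.0043 over all genes, and it ran from -0.00754 to 0.0626 with 1 library left out and was 0.0819 with library size alone. Scaling by library size alone gave 33 higher, DESeq2 gave 8 higher, and leaving out SETBP1-D868N replicate 1 gave 11 lower.

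None of the 7 tested mitochondrial members was called with edgeR, and none had an unadjusted p under 0.05. DESeq2 and limma-voom called 0 as well. Their log2 fold changes lay between 0.05 for mt-Nd6 and 0.17 for mt-Nd2. mt-Co1 reached 6672, 8359 and 8257 CPM in the LUC libraries 1 to 3 and 8271, 9421 and 7185 CPM in the SETBP1-D868N libraries. LUC 1 and SETBP1-D868N 3 were low and SETBP1-D868N 2 high, and the groups overlapped. mt-Cytb, the one mitochondrial subunit of complex III, followed the same order of libraries within each group, with 1981, 2470 and 2392 CPM against 2493, 2768 and 2219. The ribosomal RNAs mt-Rnr1 (log2 fold change -0.32, SE 0.075, adjusted p = 0.017) and mt-Rnr2 (-0.14, SE 0.043, adjusted p = 0.022) fell in edgeR's test, the first not without SETBP1-D868N replicate 2 and the second not with library size alone or without LUC 2, LUC 3 or SETBP1-D868N 1. RNA of this kind carries no long polyA tail in the cell and is poorly captured by a polyA selection.

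Summed over members, the mitochondrial genes took 1.32%, 1.65% and 1.62% of all counts in the LUC libraries and 1.71%, 1.92% and 1.503% with SETBP1-D868N. The nuclear members took 0.861%, 0.850% and 0.850% with LUC and 0.948%, 0.895% and 0.917% with SETBP1-D868N. The mitochondrial shares overlapped between the groups, and the nuclear shares did not. Both shares carry the library size scaling. After TMM scaling, the median log2 CPM of the tested nuclear members did overlap. It was 6.18, 6.16 and 6.19 in the LUC libraries and 6.23, 6.13 and 6.20 with SETBP1-D868N. The ratio of mitochondrial to nuclear counts was 1.79 ± 0.228 (SD, n = 3) with LUC and 1.86 ± 0.257 (n = 3) with SETBP1-D868N, a difference smaller than either SD.

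**Figure D2:**
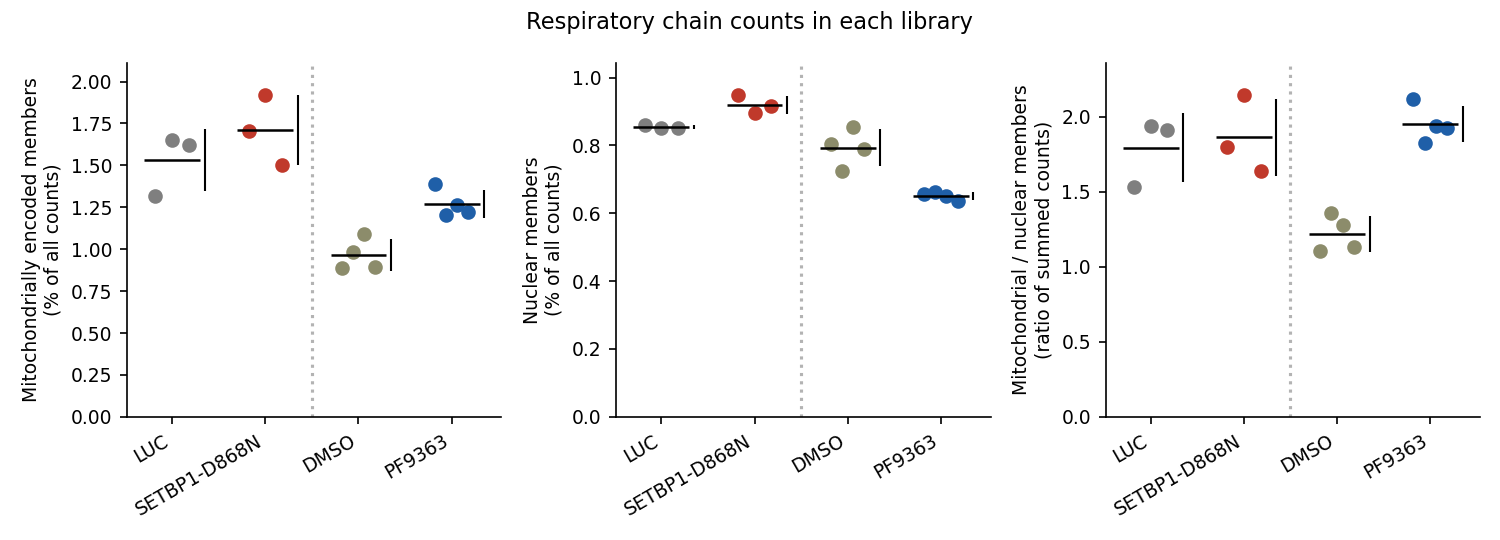
Summed counts of the 13 mitochondrially encoded members (left) and of the 87 nuclear members (middle), as % of all counts of a library, and their ratio (right). Points are libraries, horizontal lines group means and vertical lines 1 SD. The ratio lies between 1.11 and 1.36 in the DMSO libraries and between 1.82 and 2.12 in the PF9363 libraries, and the LUC and SETBP1-D868N libraries overlap.

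The nuclear members that rose with SETBP1-D868N were 6 of 36 tested in complex I (16.7%), 1 of 4 in complex II (25.0%) and 2 of 8 in complex III (25.0%). In complex IV 1 of 15 rose (6.67%) and in complex V 3 of 17 (17.6%), where 24.5% of all tested genes were called higher. Ndufs1, the largest subunit of complex I and a carrier of iron-sulfur clusters, reached 115, 113 and 117 CPM with LUC and 132, 130 and 131 CPM with SETBP1-D868N (log2 fold change 0.19, SE 0.026, adjusted p = 9.24e-05, edgeR). The groups were well apart. Ndufa4, a small subunit first assigned to complex I and also found in complex IV, rose by 0.17 (SE 0.035, adjusted p = 0.0017). The other complex I members called higher were Ndufb5, Ndufa9, Ndufs7 and Ndufa10, at 0.0985 to 0.13. In DESeq2 all of these but Ndufa10 lost their call, and so did Ndufa9 without LUC 2, LUC 3 or SETBP1-D868N 1 and Ndufs7 without LUC 3 or SETBP1-D868N 2 or 3. Exons of Ndufb5 overlap those of Mrpl47 on the opposite strand, and strand handling is not given in the sources used here. In complex III the core proteins Uqcrc1 (253 in each LUC library, then 281, 284 and 278 CPM, log2 fold change 0.15, SE 0.023, adjusted p = 0.00019) and Uqcrc2 (0.11, SE 0.026, adjusted p = 0.0035) rose, and the other 6 members were not called.

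In complex V, 3 of 17 tested members were called higher (17.6%) and 0 lower, both below the 24.5% and 22.7% of all tested genes. Atp5b reached 1190, 1168 and 1188 CPM with LUC and 1340, 1288 and 1312 CPM with SETBP1-D868N (log2 fold change 0.15, SE 0.024, adjusted p = 0.00026). Atp5g1, one of 3 genes for the same membrane ring protein, rose by 0.18 (SE 0.034, adjusted p = 0.00098), and Atp5a1, the alpha subunit that pairs with Atp5b, by 0.12. In complex II, Sdha, the flavoprotein that oxidises succinate, had 293, 296 and 292 CPM with LUC and 311, 309 and 309 with SETBP1-D868N (log2 fold change 0.08, SE 0.023, adjusted p = 0.014). DESeq2 did not call Sdha (adjusted p = 0.0728, with a range of 0.000707 to 0.0728 over the alternatives), and without LUC replicate 3 it was not called either. Sdhb, Sdhc and Sdhd had log2 fold changes of 0.08, 0.05 and 0.08 and were not called.

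The members that fell with SETBP1-D868N at levels near 100 CPM were Cox7a2l and Ndufv3. Cox7a2l, which helps join complexes III and IV into supercomplexes, went from 112, 109 and 111 CPM with LUC to 93.8, 86.8 and 95.2 CPM (log2 fold change -0.27, SE 0.036, adjusted p = 6.87e-05). Ndufv3, an accessory subunit at the NADH-binding end of complex I, went from 91.4, 89.4 and 84.3 CPM to 79.3, 67.8 and 76.2 CPM (-0.25, SE 0.059, adjusted p = 0.0098). Ndufa7, another accessory subunit, fell by 0.13 on the log2 scale (SE 0.036, adjusted p = 0.0093).

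The tissue isoforms of complex IV were rare in these cells. Cox7a1, the heart and muscle form of COX7A, lay at 0.878, 1.09 and 0.606 CPM with LUC and 0.457, 0.382 and 0.512 CPM with SETBP1-D868N, and fell (log2 fold change -0.93, SE 0.249, adjusted p = 0.0085). Cox6a2, the heart and muscle form of COX6A, lay at 0.476, 0.537 and 0.674 CPM with LUC and 0.868, 0.825 and 0.738 CPM with SETBP1-D868N, with a log2 fold change of 0.53 (SE 0.203, adjusted p = 0.0487). That call was lost in 11 of 15 alternatives, among them DESeq2 and the omission of LUC 1, LUC 2 or any SETBP1-D868N library, and its adjusted p over the 15 ranged from 0.0324 to 0.149. The widespread forms Cox6a1 (154 CPM with LUC), Cox7a2 (59.8 CPM), Cox8a (165 CPM) and Cox6b1 (144 CPM) were not called.

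Many other genes of the mitochondrion rose in this comparison. Over 6 lists (assembly factors, DNA replication and transcription, RNA processing, mitochondrial ribosome, tricarboxylic acid cycle, and import and proteases) 136 of 201 tested genes were called higher in edgeR and 0 lower, where 24.5% and 22.7% of all tested genes were, with 2 lower at an unadjusted p under 0.05 and 0 lower in DESeq2 and limma-voom. By list, 57 of 77 ribosomal proteins rose, 20 of 23 import and protease genes, 16 of 20 RNA processing genes, 14 of 18 cycle enzymes, 21 of 45 assembly factors and 8 of 18 genes of DNA upkeep and transcription. The largest rises were Ndufaf4, a complex I assembly factor (log2 fold change 0.50, SE 0.039), Timm9, a carrier of imported proteins (0.48, SE 0.049), and Top1mt, the mitochondrial topoisomerase (0.43, SE 0.062). Prorp, a subunit of mitochondrial RNase P, rose by 0.41, the ribosomal protein Mrpl47 by 0.37 and the cycle enzyme Suclg2 by 0.32. The medians of the lists lay between 0.12 and 0.23, against 0.03 for the nuclear members.

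Regulators and carriers were mixed with SETBP1-D868N, where 24.5% of all tested genes were called higher and 22.7% lower. Of 10 tested regulators of mitochondrial genes, 4 rose and 1 fell. Myc, a growth factor-driven activator, went from 173 ± 3.85 to 241 ± 4.68 CPM (SD, n = 3 and 3, log2 fold change 0.48, SE 0.028), and Nfe2l2, the main antioxidant regulator, fell from 209 ± 4.76 to 170 ± 9.26 CPM (-0.30, SE 0.037). Of 11 carriers and other subunits, 5 rose and 1 fell: Dhodh, which feeds electrons from pyrimidine synthesis into the chain, rose by 0.37 (SE 0.05), and Sqor, which feeds them from sulfide, fell by 0.49 (SE 0.032) on the log2 scale. In the same libraries 12 of 14 monocyte and macrophage markers fell (summed level 3330 to 3499 CPM with LUC and 2252 to 2499 CPM with SETBP1-D868N), 10 of 14 neutrophil markers fell and 4 rose (25570 to 26660 against 17510 to 20090 CPM) and 12 of 15 cell division markers rose (3696 to 3916 against 3913 to 4126 CPM). Their part in the results of this comparison was not tested.

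The second comparison asks what 4 days of the MYST inhibitor changed in cells with SETBP1-D868N. Here the 2 genomes went apart: every tested mitochondrial member rose, and the nuclear members fell more often than they rose. All 7 tested mitochondrial members were called higher in edgeR's test, against 36.6% of all 13456 tested genes called higher (76.0% in either direction), and 6 of the 7 did not overlap between groups, against 34.0% of all genes without overlap and higher. Mitochondrial members are cut from long shared transcripts, so these 7 calls are not independent of each other. Of the 78 tested nuclear members, 10 (12.8%) were called higher and 31 (39.7%) lower, against 39.4% of all genes called lower. The nuclear share called lower was thus at the background, and the share called higher below it.

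The median log2 fold change was 0.67 for the mitochondrial and -0.12 for the nuclear members, beside -0.038 over all genes. Scaling matters here, because library size alone moved the median of all genes by -0.2298 on the log2 scale. With library size alone, 6 mitochondrial members were higher, with a median of 0.44, 4 nuclear members were higher and 54 lower, with a median of -0.35, and 36.19% of all called genes were higher in place of 48.11%. In the first experiment that scaling gave 62.09% in place of 51.95%.

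Shares of all counts carry the library size scaling, and only the ratio of mitochondrial to nuclear counts is free of it. The mitochondrial members took 0.890%, 0.985%, 1.09% and 0.894% of counts in the DMSO libraries 1 to 4 and 1.39%, 1.21%, 1.26% and 1.22% with PF9363. The nuclear members took 0.805%, 0.724%, 0.855% and 0.789% with DMSO and 0.656%, 0.662%, 0.652% and 0.635% with PF9363. Neither overlapped between groups. The ratio of the 2 was 1.22 ± 0.121 (SD, n = 4) with DMSO and 1.95 ± 0.123 (n = 4) with PF9363, and the lowest PF9363 library (1.82) lay above the highest DMSO library (1.36).

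**Figure D3:**
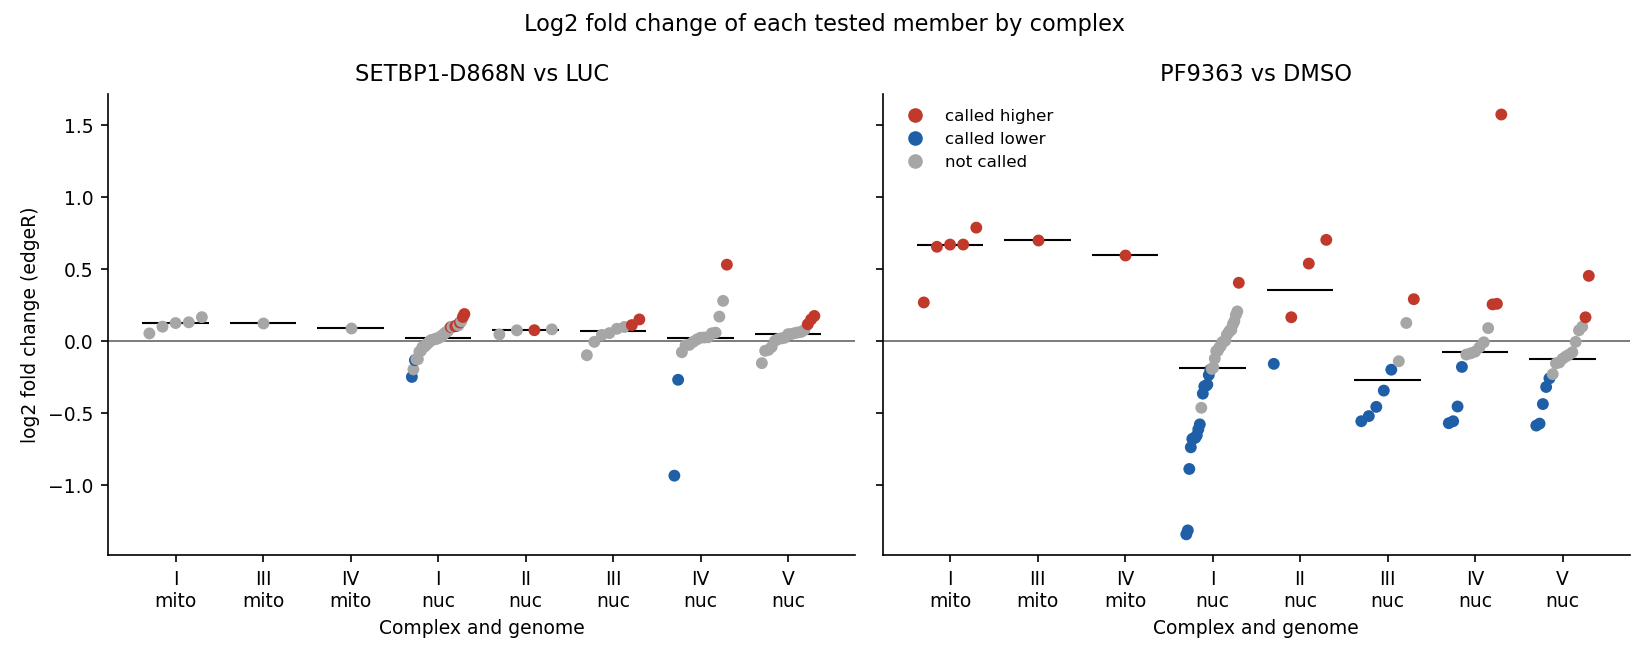
Log2 fold change of each tested member (points, edgeR) for SETBP1-D868N against LUC (left) and PF9363 against DMSO (right), grouped by complex and genome, with the group median as a line and calls at an adjusted p under 0.05 in colour. With PF9363 the 7 mitochondrial members lie between 0.27 and 0.79, while the nuclear members run from -1.34 (Ndufv3) to 1.58 (Cox6a2).

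All 5 tested subunits of complex I from mitochondrial DNA rose with PF9363. mt-Nd1, which forms the joint between the membrane arm and the ubiquinone site, reached 694, 699, 769 and 660 CPM with DMSO and 1251, 1182, 1222 and 1220 CPM with PF9363 (log2 fold change 0.79, SE 0.06, adjusted p = 1.41e-12). mt-Nd4, a proton-pumping subunit, reached 360, 414, 436 and 387 CPM and then 636, 639, 635 and 634 CPM (0.67, SE 0.062, adjusted p = 7.61e-11). The PF9363 libraries were close together in both genes and well above DMSO.

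mt-Nd5, the distal pumping subunit, rose by 0.67 (SE 0.074), from 1277 ± 135 to 2034 ± 179 CPM (SD, n = 4 and 4). mt-Nd6, made from the opposite strand, rose by 0.66 (SE 0.069), from 345 ± 29.5 to 544 ± 46.8 CPM. The ends of mt-Nd5 and mt-Nd6 overlap on opposite strands, and with strand handling not given, their reads there cannot be told apart. mt-Nd2 rose less, with 521, 497, 626 and 544 CPM with DMSO and 723, 644, 622 and 648 CPM with PF9363 (0.27, SE 0.068, adjusted p = 0.00082). Its groups overlapped at DMSO 3, and with library size alone it was not called (log2 fold change 0.04, adjusted p = 0.602, with a range of 6.55e-05 to 0.602 over the alternatives). As a share of the mitochondrial members' counts, mt-Nd2 went from 5.51% to 6.503% in the DMSO libraries to 4.482% to 5.016% in the PF9363 libraries, without overlap.

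In complexes III and IV, mt-Cytb reached 984, 1009, 1225 and 941 CPM with DMSO and 1837, 1623, 1628 and 1685 CPM with PF9363 (log2 fold change 0.70, SE 0.072, adjusted p = 1.63e-09). mt-Co1 reached 4166, 4657, 5232 and 4344 CPM and then 7635, 6394, 7100 and 6763 CPM (0.60, SE 0.072, adjusted p = 1.97e-08). Neither gene overlapped between groups, and each library with PF9363 exceeded the highest with DMSO. mt-Rnr1 and mt-Rnr2 were not called (log2 fold changes 0.31 and 0.31, adjusted p = 0.247 and 0.0857, edgeR).

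Complex II was the one complex in which the called nuclear members were mostly higher with PF9363. Sdhb, the iron-sulfur subunit, had 43.5, 37.9, 42.9 and 37.9 CPM with DMSO and 62.5, 66.9, 64.5 and 70.6 CPM with PF9363 (log2 fold change 0.70, SE 0.08, adjusted p = 6.04e-09). Sdha had 251, 234, 244 and 259 CPM and then 382, 325, 386 and 342 CPM (0.54, SE 0.064, adjusted p = 1.18e-08). Both were well apart between groups, and both kept their call with library size alone (0.473 and 0.309).

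The 2 membrane anchors of complex II changed little. Sdhc, at 86.1, 78.2, 86.5 and 78 CPM with DMSO and 87.3, 89.7, 94.3 and 98.1 CPM with PF9363, rose by 0.17 (SE 0.069, adjusted p = 0.0305), a call lost in 6 alternatives, among them library size alone (-0.0645) and the omission of DMSO 2 or 4 or PF9363 3 or 4. Sdhd, at 144, 126, 151 and 142 CPM and then 123, 128, 127 and 127 CPM, fell by 0.16 (SE 0.064, adjusted p = 0.0289), a call lost in 8 alternatives, which were DESeq2, RLE size factors and the omission of DMSO 1 or 3 or any PF9363 library. The groups of Sdhd overlapped at DMSO 2.

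**Figure D4:**
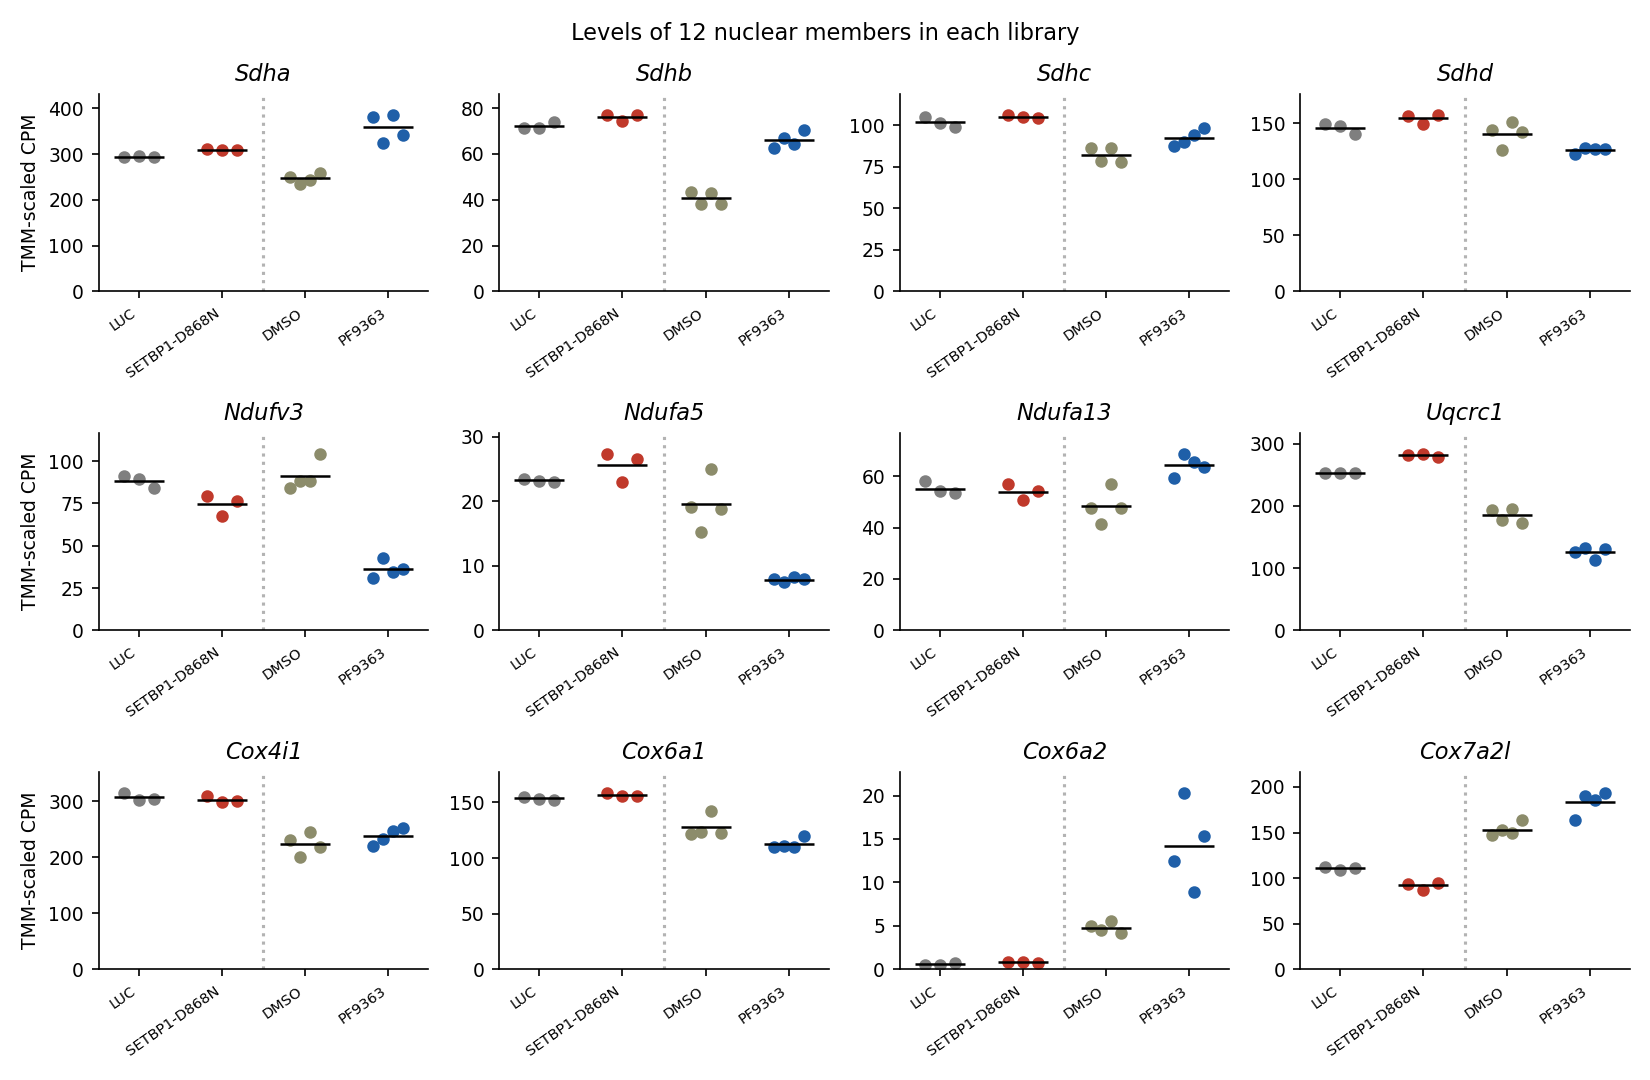
TMM-scaled CPM of 12 nuclear members in each library (points) with group means (lines), the dotted line dividing the separately scaled experiments. Sdha, Sdhb, Sdhc (narrowly), Ndufa13, Cox6a2 and Cox7a2l lie higher with PF9363 than with DMSO without overlap, and Ndufv3, Ndufa5, Uqcrc1 and Cox6a1 lie lower.

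Among tested members, the largest falls were in complex I. Of its 36 tested nuclear members, 16 fell (44.4%, where 39.4% of all tested genes did), 1 rose and 19 were not called, with a median of -0.19. Ndufv3 had 84, 88.3, 88.3 and 104 CPM with DMSO and 31.1, 43, 34.2 and 36.1 CPM with PF9363 (log2 fold change -1.34, SE 0.091, adjusted p = 3.01e-13). Ndufa5, an accessory subunit of the matrix arm, had 19.1, 15.2, 25 and 18.8 CPM and then 7.91, 7.46, 8.23 and 7.9 CPM (-1.31, SE 0.149, adjusted p = 5.72e-09). Every PF9363 library of both genes was below every DMSO library.

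The other 14 that fell ran from Ndufb5 at -0.89 to Ndufb11 at -0.198, with Ndufc2 at -0.74, Ndufb3 at -0.68, Ndufs4 and Ndufs6 at -0.67 and Ndufa9 at -0.65, followed by Ndufb7, Ndufa4, Ndufa3, Ndufc1, Ndufa11, Ndufb10 and Ndufa8. Ndufa8, Ndufa11, Ndufb11 and Ndufc1 lost the call when single libraries were left out (PF9363 4 for Ndufa8, DMSO 1, PF9363 1 or 3 for Ndufa11, DMSO 3, PF9363 1 or 4 for Ndufb11, and DMSO 1, 3 or 4 or PF9363 4 for Ndufc1). Apart from Ndufa4, these are accessory subunits, which surround the catalytic core. Ndufs1, a subunit of that core, was not called, with a log2 fold change of -0.07 (adjusted p = 0.349, edgeR). Ndufa13, an accessory subunit also known as Grim19, was the single one that rose, at 47.7, 41.5, 57 and 47.7 CPM with DMSO and 59.4, 68.8, 65.7 and 63.6 CPM with PF9363 (0.41, SE 0.087, adjusted p = 0.00013). Its exons overlap those of Tssk6 on the opposite strand, strand handling is not given in the sources used here, and it was not called with library size alone (0.176).

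In complex III, 5 of 8 members fell (62.5%) and 1 rose (12.5%), where 39.4% and 36.6% of all tested genes did. Uqcrc1 had 193, 176, 195 and 173 CPM with DMSO and 126, 133, 113 and 130 CPM with PF9363 (-0.56, SE 0.066, adjusted p = 1.33e-08). Uqcrh fell by 0.52 (SE 0.075), Uqcr11 by 0.46, the Rieske protein Uqcrfs1 by 0.34 (SE 0.072) and Uqcrc2 by 0.20 (SE 0.065), not called without PF9363 replicate 4. Uqcrq, a small subunit, rose by 0.29 (SE 0.075, adjusted p = 0.001), a call lost with library size alone (0.0632). mt-Cytb of the same complex rose, and Uqcrb and Uqcr10 were not called.

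In complex V, 5 of 17 tested members fell (29.4%) and 2 rose (11.8%). Both shares were below those of all tested genes, 39.4% and 36.6%. Of the 3 genes for the ring protein, Atp5g1 had 104, 80.6, 121 and 99 CPM with DMSO and 71.5, 65, 65.9 and 67 CPM with PF9363 (-0.59, SE 0.093, adjusted p = 7.7e-06), and Atp5g2 fell by 0.57 (SE 0.073), from 89.1 ± 3.37 to 60 ± 4.81 CPM (SD, n = 4 and 4). Atp5g3, the highest of them per kilobase with DMSO (213 CPM per kb, against 37.9 for Atp5g1), was not called (-0.09, SE 0.072, adjusted p = 0.245). The 2 levels per kilobase rest on transcript lengths of 718.5 bases for Atp5g3 and 2665.5 for Atp5g1, so much of that gap comes from length. Atp5g2 shares 34.7% of its 100-base stretches with the pseudogenes Gm10175 and Gm10231, so its count is uncertain. Atp5pb, a subunit of the peripheral stalk, had 206, 201, 223 and 218 CPM and then 272, 289, 298 and 302 CPM (0.45, SE 0.06, adjusted p = 9.05e-08), also called with library size alone (0.223). Atp5b rose by 0.17 (SE 0.063, adjusted p = 0.019) with overlapping groups, with library size alone its value was -0.0638, and without DMSO 2, DMSO 4 or PF9363 1 it was not called.

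In complex IV, the rare and the common isoforms of 1 subunit parted with PF9363. Cox6a2 had 4.95, 4.58, 5.51 and 4.16 CPM with DMSO and 12.4, 20.3, 8.85 and 15.4 CPM with PF9363 (log2 fold change 1.58, SE 0.203, adjusted p = 2.44e-07), the largest rise of any member. Cox6a1, the form of most tissues, had 122, 123, 143 and 123 CPM and then 110, 111, 110 and 120 CPM, and fell by 0.18 (SE 0.067, adjusted p = 0.018), a call lost in DESeq2 and without DMSO 3 or PF9363 1, 2 or 3. Per kilobase, Cox6a1 was the higher form with PF9363, at 198 CPM per kb against 20.95 for Cox6a2. Cox6a2 shares exon sequence with Itgad on the opposite strand, which lay at 0.713 ± 0.16 CPM with DMSO and 0.422 ± 0.154 CPM with PF9363.

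In complex IV, 3 further subunits fell: Cox7b by 0.57 (SE 0.071), Cox7a2 by 0.56 (SE 0.081) and Cox6c by 0.45 (SE 0.08) on the log2 scale. Cox7a2l had 147, 153, 150 and 164 CPM with DMSO and 164, 190, 186 and 194 CPM with PF9363 (0.26, SE 0.065, adjusted p = 0.00077), and Cox8a rose by 0.26 (SE 0.072, adjusted p = 0.0019). Both calls were lost with library size alone (0.0252 and 0.0296). The most abundant nuclear subunit, Cox4i1, was not called (0.09, SE 0.066, adjusted p = 0.208, and -0.14 with library size alone), nor were Cox5a (-0.07), Cox5b (-0.01), Cox6b1 (-0.09) and Cox7a1 (-0.04). Cox6b2, the testis form of COX6B, had 11, 9, 13 and 24 counts with DMSO and 2, 2, 4 and 2 with PF9363, and Cox4i2, the lung form of COX4, had 4, 4, 0 and 4 and then 0 in each library, and both were below the filter.

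The 2 comparisons share no libraries. Of 78 nuclear members tested in both, 3 were higher in both (Atp5b, Cox6a2 and Sdha), 1 lower in both (Ndufv3), 6 higher with SETBP1-D868N and lower with PF9363 (Atp5g1, Ndufa4, Ndufa9, Ndufb5, Uqcrc1 and Uqcrc2) and 1 the reverse (Cox7a2l). Another 31 were called in neither. Across the 78 genes, which are not independent replicates, Pearson's r of the log2 fold changes was 0.154 and Spearman's rho -0.0156.

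Genes of the machinery that copies and reads mitochondrial DNA fell more often than they rose with PF9363. Of 18 genes of mitochondrial DNA replication and transcription, 11 fell and 2 rose, where 39.4% of all tested genes fell and 36.6% rose. Tfam, which packs mitochondrial DNA and starts its transcription, went from 39.8 ± 3.46 to 19.4 ± 5.12 CPM (SD, n = 4 and 4, log2 fold change -1.06, SE 0.129, adjusted p = 1.19e-07). The polymerase gene Polrmt was not called (-0.28, adjusted p = 0.077). Mterf2, a factor bound to mitochondrial DNA, fell from 3.48 ± 0.635 to 0.538 ± 0.301 CPM (-2.59, SE 0.377), and Mterf3, described as a repressor of mitochondrial transcription, rose from 19 ± 1.6 to 36.8 ± 3.79 CPM (0.95, SE 0.104).

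Downstream of transcription, 11 of 20 RNA processing genes fell and 3 rose with PF9363, beside 39.4% and 36.6% of all tested genes. Elac2, which cuts the 3' ends of mitochondrial tRNAs, fell from 31.8 ± 2.25 to 11.8 ± 1.14 CPM (-1.44, SE 0.114), and Rexo2, a nuclease of short RNAs, rose from 49.4 ± 3.28 to 70.3 ± 4.22 CPM (0.51, SE 0.077). Of 77 tested mitochondrial ribosomal proteins, 59 fell and 3 rose, with a median of -0.57. Mrpl13 fell by 1.60 (SE 0.107) and Mrps6 rose by 1.95 (SE 0.251), from 1.87 ± 0.392 to 7.23 ± 1.93 CPM. This ribosome makes the mitochondrial subunits, and the median of the chain's nuclear members was -0.12.

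Assembly and import genes also fell more often than they rose, where 39.4% of all tested genes fell and 36.6% rose. Of 44 tested assembly factors, 25 fell and 11 rose, among them Nubpl, which supplies iron-sulfur clusters to complex I (-2.74, SE 0.283), and Coa7, a complex IV assembly factor (1.28, SE 0.15). Of 23 import and protease genes, 14 fell and 3 rose, with Timm50, a receptor of the inner membrane, at -1.505 (SE 0.132) and Hspa9, the matrix chaperone, at 1.24 (SE 0.059), from 394 ± 22 to 930 ± 20.3 CPM (SD, n = 4 and 4). In the tricarboxylic acid cycle 10 of 18 fell and 4 rose. Suclg2, a subunit of succinyl-CoA synthetase, which makes the succinate that complex II uses, fell from 55.6 ± 2.37 to 11.7 ± 1.4 CPM (-2.25, SE 0.103), and Ogdh, a subunit of the enzyme before it, rose by 0.51 (SE 0.062).

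Regulators again split with PF9363, where 36.6% of all tested genes rose and 39.4% fell. Of 10 tested, 5 rose: Ppargc1b, a coactivator of mitochondrial genes (log2 fold change 1.62, SE 0.18), Nfe2l2 (1.38, SE 0.063), the nuclear receptor Esrra (0.86, SE 0.071), Pprc1 (0.57, SE 0.085) and Nrf1 (0.37, SE 0.085). The 2 that fell were Myc, from 177 ± 6.1 to 30.2 ± 2.9 CPM (SD, n = 4 and 4, -2.55, SE 0.075), and Gabpa, which binds ETS motifs in promoters of chain genes (-0.72, SE 0.067). Of 10 tested carriers and outside subunits, 4 rose and 3 fell. Sqor rose from 70.5 ± 4.01 to 148 ± 7.53 CPM (1.07, SE 0.067), Dhodh fell from 16.2 ± 2.2 to 5.23 ± 1.09 CPM (-1.63, SE 0.163), and cytochrome c (Cycs) rose by 0.39 (SE 0.07), while its partner in complex III, Cyc1, was not called (0.05, adjusted p = 0.593).

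**Figure D5:**
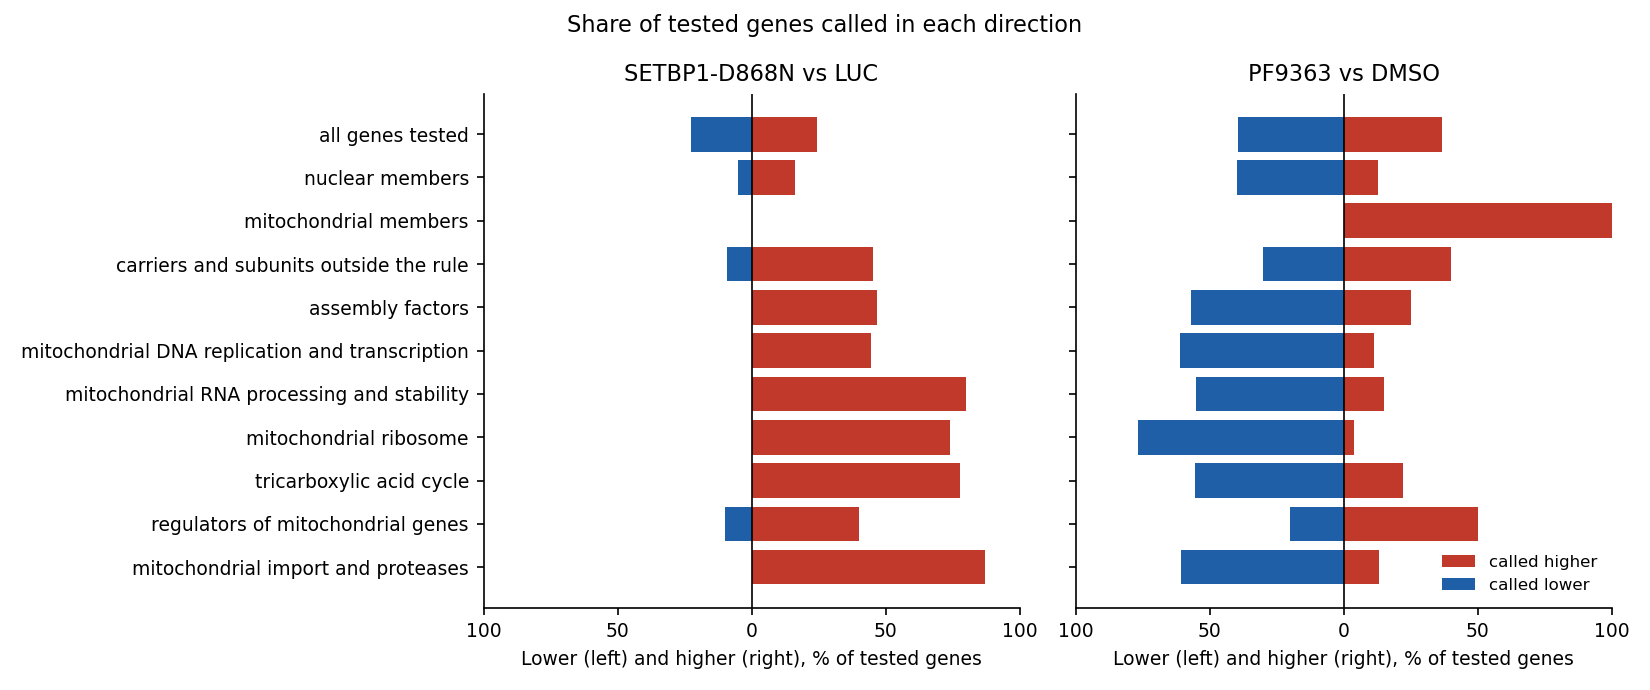
Share (%) of tested genes called higher (red, right) and lower (blue, left) at an adjusted p under 0.05 in edgeR, for all tested genes, for nuclear and mitochondrial members and for 8 lists of mitochondrial genes, in each comparison. With SETBP1-D868N 57 of 77 ribosomal proteins are higher, and with PF9363 59 of 77 are lower while all 7 mitochondrial members are higher.

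Markers of several other cell types and of division moved strongly in the same libraries, where 36.6% of all tested genes rose and 39.4% fell. With PF9363, 11 of 13 tested monocyte and macrophage markers rose (summed level 3712 to 3770 CPM with DMSO and 9751 to 11530 CPM with PF9363), led by Fcgr1, with Csf1r going from 62 ± 4.69 to 423 ± 22.7 CPM (SD, n = 4 and 4). Of 12 mast cell and basophil markers 11 rose (1412 to 1795 against 5349 to 6397 CPM), and of 15 cell division markers 15 fell (3253 to 3553 against 529.7 to 915.9 CPM). Neutrophil markers were mixed, with 5 of 14 higher and 5 lower (19400 to 22680 against 17560 to 19010 CPM). Of 8 tested stem and progenitor markers 5 rose and 1 fell, and of 5 tested megakaryocyte markers 4 rose and 1 fell. B cell markers summed to 11.25 to 15.66 CPM with DMSO and 1.709 to 3.602 CPM with PF9363, and T and NK cell markers to 35.75 to 48.07 and 2.165 to 3.495 CPM, and Ms4a1, Ebf1, Cd3e, Cd3g and Cd8a were at 0 in all 8. Of the T and NK cell markers only Nkg7 was tested, and it fell. The part of these markers in the changes of the chain was not tested.

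Promoter sequence was given for 68 of the 87 nuclear members as 250 bases before to 50 after the RefSeq start (GRCm38.p6). Letters bound by 3 factors known for such genes were searched on both strands. GCGCATGCG, a core of the NRF1 site, was in 8 members (11.8%, against 1.95% of the 27025 genes in the table), CCGGAAG, the core of ETS sites such as those of GABPA, in 17 (25.0% against 9.93%), and AAGATGGCG, the YY1 site, in 7 (10.3% against 1.64%). TATAAA was in 8 (11.8% against 15.67%). Some members hold more than 1 of them. Shown here are 60-base stretches from before the start of 4 members that fell with PF9363, with the matched letters, on either strand, in capitals. The capitals end 50 bases before the start in Ndufa11, 152 in Cox6a1, 3 in Uqcrh and 59 in Uqcr11.
Ndufa11 (chr17:56717686-56717745, plus strand, NRF1): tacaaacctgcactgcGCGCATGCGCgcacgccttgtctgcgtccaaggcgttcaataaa
Cox6a1 (chr5:115349070-115349129, minus strand, NRF1): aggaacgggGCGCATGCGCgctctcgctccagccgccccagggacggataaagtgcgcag
Uqcrh (chr4:116075072-116075131, minus strand, ETS): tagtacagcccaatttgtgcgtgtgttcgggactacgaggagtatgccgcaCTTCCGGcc
Uqcr11 (chr10:80406855-80406914, minus strand, ETS): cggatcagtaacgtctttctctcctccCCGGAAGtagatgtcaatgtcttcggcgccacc

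With PF9363, 6 of the 8 members with the NRF1 letters fell and 0 rose in edgeR (Uqcrc1, Cox6a1, Ndufa11, Ndufa8, Uqcr11 and Atp5g2 fell), and 5 of the 7 with the YY1 letters fell. Of the 17 with the ETS letters, 6 fell and 2 rose. Of the 38 tested members with none of the 3, 14 fell and 5 rose, and of the 27 with any of them 14 fell and 2 rose, with medians of -0.0743 and -0.192. These counts describe small groups in a comparison where 39.4% of all genes were called lower, and no difference between them was tested. With SETBP1-D868N the same 2 groups had medians of 0.0322 and 0.0248.

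Outside the members and lists, the genes whose levels followed the median of the nuclear members most closely over the 8 libraries of the second experiment were Nedd8, Eef1d, Nsmce2, Rbx1 and Creld2, of 7203 genes with a mean of at least 20 CPM. Their Pearson r was 0.987, 0.980, 0.977, 0.976 and 0.975. The points share the 2 groups and the scaling, and the 5 genes all fell with PF9363, by 0.22 (Rbx1) to 0.59 (Creld2) on the log2 scale.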

How the data were processed

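Gene counts were deposited by the authors as 2 tables of raw counts, one per experiment. The submitters' processing notes name STAR, DESeq2, GRCm38 and mm10, with no role. Depth, 7083731 to 68730322 counts per library, sets the precision of each level. Each whole table was filtered (filterByExpr, minimum count 10, minimum total 15), scaled by TMM and tested with edgeR 4.0.16's robust quasi-likelihood test in R 4.3.3, by group only. P-values were adjusted by Benjamini-Hochberg over all genes, called under 0.05. A standard error (SE) is the log2 fold change over the root of F. Members and lists were chosen with earlier results of these data known. Named genes were all mt- and Sdh members, COX and ATP synthase ring isoforms, the 2 largest called changes each way per complex (5 CPM or more in the group with the higher mean), the highest and lowest per kilobase, and each list's largest calls. Others named were chosen after their values were seen. Alternatives were RLE scaling, library size alone, scaling without mt- genes, no filter, DESeq2 1.42.0, limma-voom (limma 3.58.1), no robust estimation, a minimum mean count of 10, a replicate block and each library left out. On simulated counts with 200 changed genes, edgeR called 78% of 1.5-fold and 52% of 1.2-fold changes in the first design (15794 genes). In the second (13456 genes) it called 68% and 30%. Of its calls, 8.88% were false in the first design and 4.83% in the second. Far more genes were called in the data, so these false shares may not carry over.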

Additional observations from a re-analysis of the deposited data

Results flagged for a closer look

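In each group of 4 libraries, the highest and lowest value of the named members were compared with the rest, and a sample was noted where its gap to its nearest neighbour relative to the group's range exceeded Dixon's 95% critical value. Of 86 groups tested, 5 held such a sample, and chance gives about 1 in 20. Cox6a1, the widespread COX6A form, lay at 142.6 CPM in DMSO replicate 3, with the other DMSO libraries at 122.0 to 123.3. It lay at 120.0 CPM in PF9363 replicate 4, with the others at 109.7 to 111.1. Ndufa7 lay at 35.13 CPM in DMSO replicate 1, below the others at 39.33 to 40.11. Sdhd, the complex II anchor, lay at 122.7 CPM in PF9363 replicate 1, against 127.1 to 127.6. Uqcrh, the hinge protein of complex III, lay at 53.45 CPM in the same library, against 62.56 to 63.67.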

How the results depend on the processing

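Of 1800 values of single named genes and summed shares under the alternatives, 1693 kept direction and side of the threshold, 47 lost a call, 31 gained one and 29 changed sign. With library size alone, nuclear members called higher were 33 and their median 0.0819 with SETBP1-D868N, and with PF9363 they were 4 higher and 54 lower, with medians of -0.351 (nuclear) and 0.44 (mitochondrial). Of the 41 nuclear calls with PF9363, that scaling kept 35, and 6 were no longer called (Cox7a2l, Cox8a, Ndufa13, Uqcrq, Atp5b and Sdhc). DESeq2 called 8 nuclear members higher with SETBP1-D868N. The cause was not tested.

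Signs turned with library size alone for Cox4i1 (0.0244), Cox5b (0.021) and Ndufa13 (0.0172) in the first comparison, and for Atp5b (-0.0638), Cox4i1 (-0.14), Ndufa7 (-0.173) and Sdhc (-0.0645) in the second. In the second, Cox5b gave 0.0189 with RLE size factors, 0.000947 with scaling without mt- genes and 0.0191 in DESeq2, and Cox7a1 gave 0.0429 in limma-voom. All but Atp5b and Sdhc were uncalled in the main test where they turned.

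Leaving out 1 library at a time gave 10 to 17 nuclear members higher and 4 to 11 lower with SETBP1-D868N, the 11 without SETBP1-D868N replicate 1, and medians of -0.00754 to 0.0626 (nuclear) and 0.0238 to 0.19 (mitochondrial). With PF9363 it gave 8 to 11 higher and 27 to 42 lower, the 42 without DMSO replicate 2, medians of -0.193 to -0.0961 and 0.62 to 0.71, and 7 mitochondrial members higher each time. Uncalled log2 fold changes that crossed 0 ran over the libraries left out, with SETBP1-D868N, from -0.0332 to 0.0476 (Atp5g2), -0.0231 to 0.0663 (Cox5a), -0.0345 to 0.0631 (Cox7a2), -0.0273 to 0.043 (Cox7b), -0.0751 to 0.00732 (Ndufa13), -0.0668 to 0.0538 (Ndufb2), -0.0114 to 0.186 (mt-Co1) and -0.0109 to 0.18 (mt-Nd5), and with PF9363 from -0.0573 to 0.0625 (Cox5b) and -0.219 to 0.271 (Cox7a1).

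A replicate block was also fitted, although the labels do not say that equal numbers share an animal or day. Same-numbered libraries did not deviate together (correlations of -0.179 to -0.0453 for LUC and SETBP1-D868N, and of -0.0382 to 0.0111 for DMSO and PF9363). With the block, 10 nuclear members were higher and 4 lower with SETBP1-D868N, with Cox6a2, Ndufs7 and Sdha no longer called, and 10 were higher and 31 lower with PF9363. Cox7a1 changed sign there (0.0125). All 7 mitochondrial members stayed higher with PF9363, and 0 were called with SETBP1-D868N.

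Depth limits what the second experiment can show of rare isoforms: Cox4i2 and Cox6b2 were below its filter.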
